A study of Mus musculus with 8 samples.

Results

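The interleukin-1 family was examined in mouse aortic smooth muscle cells through 10 listed genes: the ligand genes Il1a, Il1b, Il33 and Il18, the antagonist gene Il1rn, and the receptor and inhibitor genes Il1r1, Il1rap, Il1r2, Il1rl1 and Il18bp. They were found by symbol in the platform annotation of the deposited probe sets, and 9 of the 10 were named in this way among 24704 genes tested. Il1rl1 was not analysed here. Each of the 9 had 1 probe set.

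Total RNA came from cultured murine aortic vascular smooth muscle cells and was hybridised to Affymetrix arrays, 1 sample per array. Every culture was infected with an adenovirus for 24 h and afterwards kept for 72 h with 10 µg/ml cholesterol. The control group carried the virus named AdPl (4 arrays), and the other carried AdN5 and is labelled as overexpressing NFAT5, the transcription factor of the osmotic stress response (4 arrays). The comparison asks how NFAT5 overexpression alters transcripts of cholesterol-exposed cells. Cells without virus or without cholesterol were not analysed here, and the promoter that drives the transgene is not given in the sources used here. The labels do not say whether replicates were separate cultures, so p-values measure the spread between these arrays, which may be technical.

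Interleukin-1 alpha and interleukin-1 beta bind the receptor encoded by Il1r1, which then recruits the accessory protein encoded by Il1rap and signals through MyD88 and IRAK kinases to NF-kB and MAP kinases. The receptor antagonist encoded by Il1rn occupies Il1r1 without signalling, and Il1r2 is a decoy that binds ligand without signalling. Interleukin-1 beta and interleukin-18 are cut from precursors by caspase-1 in inflammasomes, whereas interleukin-1 alpha and interleukin-33 act as alarmins released from damaged cells. In the arterial wall, smooth muscle cells both make and answer interleukin-1, and the pathway is known for its part in atherosclerosis.

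Values are deposited log2 RMA levels. The Nfat5 transcript did not match the label: it was 7.16 ± 0.089 (SD, n = 4) in the control arrays and 6.97 ± 0.072 (SD, n = 4) in the arrays labelled NFAT5 (log2 fold change -0.19 ± 0.078 SE, adjusted p = 0.360 in limma, exact two-sided permutation p = 0.0571). Whether its probes read the transgene is not given in the sources used here. These arrays are therefore called NFAT5-labelled, and each direction rests on the labels. The smooth muscle markers Acta2 (12.04 in the control arrays), Tagln (8.39), Smtn (7.64), Cnn1 (6.27) and Myh11 (5.32) were well measured. Myocd (3.30) lay below the median gene, which had a control mean of 3.73, and Des lay just below it. Of the 7 measured fibroblast markers 0 lay below the median gene, and Dcn was at 12.20 in the control arrays. On the second principal component control replicate 3 (14.2) and NFAT5 replicate 4 (24.7) lay at the positive end, with the others between -19.5 and 0.337. Values without both arrays at the positive end are given beside the members and called genes they touch. NFAT5 replicate 3, at the negative end (-19.5), was left out only as a single array. Calls rest on limma p-values adjusted by Benjamini-Hochberg over all genes tested, with a threshold of 0.05.

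No member of the family passed the test. Of the 9 members 0 were called by limma, against 0.777% of all genes (0.364% higher and 0.413% lower), and 5 had an unadjusted p under 0.05, against 12.5% of all genes. Il1a, Il1rn and Il18bp were the 3 of these with higher values in the NFAT5-labelled arrays, against 6.24% of all genes, and Il33 and Il1r1 the 2 with lower values, against 6.29%. The median log2 fold change of the 9 members was 0.0052, beside 0.0042 for all genes. In an alternative limma fit that lets the variance follow expression and is robust to outlying genes (the trended fit), 4 members were called, namely Il1a, Il1rn, Il33 and Il1r1, against 3.16% of all genes in that fit. Their levels ranged from 1.59 times the control level for Il1a to 0.751 times for Il33.

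The stretches upstream of the starts of these 4 genes are shown because their values differed most between the groups. Each is the 250 bases before the first start that RefSeq lists (build GRCm38.p6), at chr2:129309973-129310222 on the minus strand for Il1a, chr2:24336610-24336859 on the plus strand for Il1rn, chr19:29924863-29925112 on the plus strand for Il33 and chr1:40224830-40225079 on the plus strand for Il1r1. Capitals mark matches to the AP-1 motif TGANTCA, where N is any base. The build behind the arrays is not given in the sources used here.
Il1a: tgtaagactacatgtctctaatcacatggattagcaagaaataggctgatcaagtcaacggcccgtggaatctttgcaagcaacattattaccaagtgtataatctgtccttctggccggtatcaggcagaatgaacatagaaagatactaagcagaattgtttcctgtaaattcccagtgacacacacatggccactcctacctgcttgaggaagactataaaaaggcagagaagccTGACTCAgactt
Il1rn: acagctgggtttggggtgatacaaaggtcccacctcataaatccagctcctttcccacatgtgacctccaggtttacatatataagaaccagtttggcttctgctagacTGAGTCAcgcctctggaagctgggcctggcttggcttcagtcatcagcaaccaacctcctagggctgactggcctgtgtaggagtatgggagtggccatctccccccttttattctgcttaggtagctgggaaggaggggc
Il33: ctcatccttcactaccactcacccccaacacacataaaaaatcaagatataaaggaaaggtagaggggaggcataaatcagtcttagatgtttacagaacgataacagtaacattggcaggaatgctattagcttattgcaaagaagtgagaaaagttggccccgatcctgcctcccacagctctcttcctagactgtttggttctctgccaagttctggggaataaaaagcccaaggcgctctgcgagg
Il1r1: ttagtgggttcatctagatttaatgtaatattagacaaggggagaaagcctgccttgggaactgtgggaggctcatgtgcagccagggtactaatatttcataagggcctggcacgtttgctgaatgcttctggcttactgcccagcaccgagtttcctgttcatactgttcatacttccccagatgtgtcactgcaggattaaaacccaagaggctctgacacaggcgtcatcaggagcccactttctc

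Among the genes printed, Il1a and Il1rn had higher values in the NFAT5-labelled arrays, and each held 1 AP-1 match in its printed stretch. The match began 12 bases before the start of Il1a and 141 bases before that of Il1rn. Starts 2 and 3 of Il1rn held no AP-1 match. Il18bp, which also had higher values (log2 fold change 0.26), held none either. A link between the motif and the direction of the values was not tested. The Il33 and Il1r1 stretches held none of the motifs searched. Over all 13 listed starts of the 9 members AP-1 matches were found at 2, against 6.75% of all 32851 starts in the RefSeq table. The core TGGAAA of the tonicity element, the site NFAT5 binds, was found on either strand at 3 of the 13 starts, those of Il1b and Il18bp and the third start of Il1rn, against 18.6% of all starts. The tonicity element consensus, which begins with that core, was at 0 of the 13 starts, against 4.31% of all. The NF-kB consensus was at 1, the second start of Il1r1, against 7.25%. All motifs were searched on both strands. These are matches of letters, and binding was not measured.

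Among the ligands, Il1a showed the largest difference of the family. Its control values were 5.07, 4.78, 5.11 and 5.29, and its NFAT5-labelled values 5.36, 5.78, 5.92 and 5.89. Every NFAT5-labelled array lay above every control array, although NFAT5 replicate 1 exceeded the highest control by little. The group means were 5.06 ± 0.21 and 5.73 ± 0.26 (SD, n = 4), a log2 fold change of 0.67 ± 0.15 (SE; 95% interval 0.34 to 1.00). It did not pass the adjusted threshold (adjusted p = 0.0897 in limma; exact two-sided permutation p = 0.0286, the smallest that the 70 assignments of the arrays allow). The call depended on the setting: the adjusted p in limma was 0.0374 among genes above the median of expression, where 4.02% of genes were called, 0.0116 in the trended fit, and 0.0456 without NFAT5 replicate 1 (log2 fold change 0.80), where 0.344% were called. Without both arrays at the positive end of the second component the log2 fold change was 0.64 (adjusted p = 0.273 in limma).

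Il1b, the inflammasome-processed ligand and the neighbour of Il1a on the chromosome, showed no such difference. Its values were 3.38, 3.42, 3.42 and 3.97 in the control arrays and 3.91, 3.27, 3.71 and 3.10 in the NFAT5-labelled arrays. The groups overlapped throughout, and the control mean of 3.55 lay just below the median gene. The log2 fold change was -0.049 ± 0.20 (95% interval -0.49 to 0.39; adjusted p = 0.956 in limma), and its sign turned without control replicate 4 (0.093), NFAT5 replicate 2 (0.027) or NFAT5 replicate 4 (0.084).

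Il33, the nuclear alarmin of stromal cells, ran the other way. The control values were 7.57, 7.40, 7.31 and 7.42, and the NFAT5-labelled values 6.85, 6.88, 7.27 and 7.05. All NFAT5-labelled arrays lay below all control arrays, with NFAT5 replicate 3 just under control replicate 3. The means were 7.42 ± 0.11 and 7.01 ± 0.19 (SD, n = 4), a log2 fold change of -0.41 ± 0.11 (95% interval -0.66 to -0.17). The adjusted p was 0.151 in limma and 0.0170 in the trended fit, and the exact permutation p was 0.0286. Leaving out single arrays gave -0.50 to -0.36, with adjusted p from 0.0939 to 0.318 in limma.

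Il18 was dim, at the 31.1 percentile of all genes in the control arrays. It measured 2.80, 2.76, 2.63 and 2.69 in the control arrays and 2.66, 3.03, 2.61 and 3.02 in the NFAT5-labelled arrays. NFAT5 replicates 2 and 4 lay above the control range, replicate 1 within it and replicate 3 just under it, and the log2 fold change was 0.11 ± 0.11 (95% interval -0.15 to 0.36; adjusted p = 0.765 in limma).

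The antagonist gene Il1rn shared the direction of Il1a, with a smaller difference. Its control values were 6.74, 6.78, 7.06 and 6.82 and its NFAT5-labelled values 6.96, 7.30, 7.19 and 7.33. The groups overlapped by a single pair, since NFAT5 replicate 1 lay under control replicate 3. The means were 6.85 ± 0.15 and 7.20 ± 0.17 (SD, n = 4), a log2 fold change of 0.35 ± 0.11 (95% interval 0.10 to 0.59; adjusted p = 0.223 in limma, 0.0495 in the trended fit; exact permutation p = 0.0571). The difference between the log2 values of Il1a and Il1rn on the same array, set to 0 at the control mean, was 0.12, -0.21, -0.17 and 0.26 in the control arrays and 0.18, 0.27, 0.51 and 0.34 in the NFAT5-labelled arrays. The mean shift of 0.32 of agonist over antagonist was thus not separated between the groups, whose SDs were 0.23 and 0.14. Both genes were separated from the receptor gene Il1r1 when compared in the same way: the difference between Il1a and Il1r1 was -0.14 to 0.08 in the control arrays and 0.65 to 1.16 in the NFAT5-labelled arrays (mean shift 0.98), and that between Il1rn and Il1r1 was -0.18 to 0.23 and 0.47 to 0.89 (mean shift 0.65). These differences combine values of genes already described and were not tested.

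Among the receptors, Il1r1, the signalling receptor shared by both interleukin-1 ligands, had lower values in the NFAT5-labelled arrays. The control values were 7.38, 7.23, 7.36 and 7.52, against 7.02, 6.93, 7.13 and 7.19. The groups did not overlap, and the spread was the same in both (7.37 ± 0.12 and 7.07 ± 0.12, SD, n = 4). The log2 fold change was -0.31 ± 0.092 (95% interval -0.51 to -0.10), with an adjusted p of 0.206 in limma, 0.0406 in the trended fit, and an exact permutation p of 0.0286. Groups that do not overlap were found for 3 of the 9 members, 1 higher and 2 lower, against 8.78% of all genes, 4.22% higher and 4.56% lower.

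The accessory protein gene Il1rap did not separate the groups. It measured 4.10, 4.42, 4.09 and 4.33 in the control arrays and 3.85, 4.11, 4.18 and 4.48 in the NFAT5-labelled arrays. The lowest and the highest of the 8 values were both NFAT5-labelled. Its log2 fold change was -0.078 ± 0.14 (95% interval -0.39 to 0.23; adjusted p = 0.877 in limma) and turned to 0.023 without NFAT5 replicate 1.

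The decoy gene Il1r2 was dim and scattered widely in both groups. Its values were 2.90, 3.03, 2.29 and 2.61 in the control arrays and 2.88, 2.28, 3.02 and 2.67 in the NFAT5-labelled arrays. Neither group stood above the other, with means of 2.71 ± 0.33 and 2.71 ± 0.32 (SD, n = 4). The log2 fold change was 0.0052 ± 0.19 (95% interval -0.43 to 0.44; adjusted p = 0.996 in limma), and its sign turned to -0.14 when control replicate 3 was left out, to -0.027 for control replicate 4, to -0.051 for NFAT5 replicate 1 and to -0.10 for NFAT5 replicate 3. At this level a difference within that interval was not detectable.

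Il18bp, the secreted protein that neutralises interleukin-18, lay slightly higher in the NFAT5-labelled arrays. The control values were 5.07, 5.15, 5.21 and 4.94 and the NFAT5-labelled values 5.25, 5.44, 5.19 and 5.51. Only NFAT5 replicate 3 reached into the control range. The log2 fold change was 0.26 ± 0.099 (95% interval 0.036 to 0.48; adjusted p = 0.318 in limma; exact permutation p = 0.0571), and it was not called in the trended fit. Without both arrays at the positive end of the second component the log2 fold changes were -0.47 for Il33, 0.37 for Il1rn, -0.35 for Il1r1 and 0.24 for Il18bp.

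**Figure D1:**
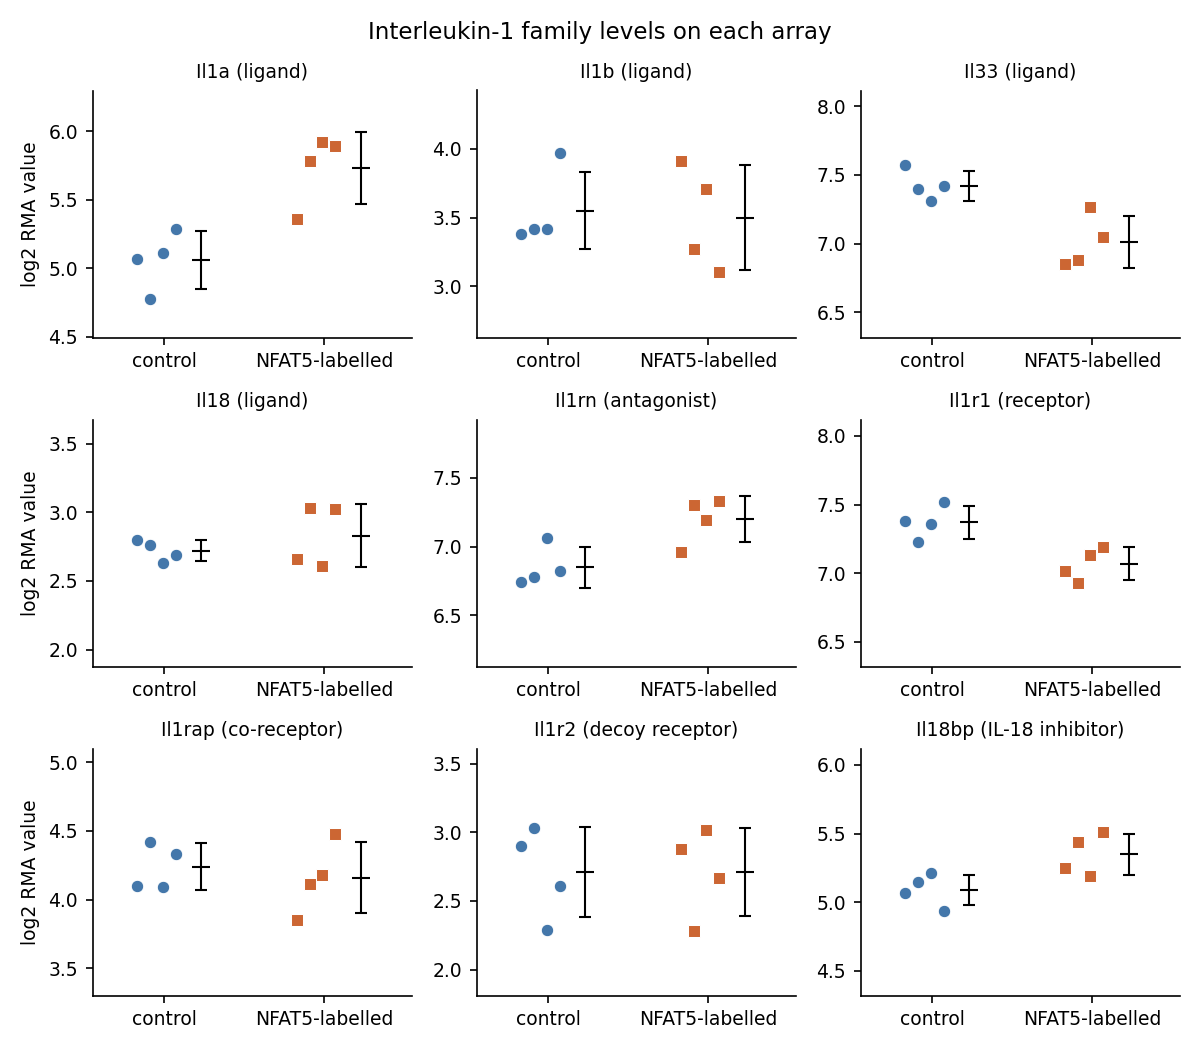
Log2 RMA value (vertical axis, each panel spanning the same range of log2 units) of the 9 members on the 4 control arrays (circles) and the 4 NFAT5-labelled arrays (squares), with the mean and SD of each group as bars. Il1a, Il33 and Il1r1 are the members whose groups do not overlap, and Il1b, Il18, Il1rap and Il1r2 overlap broadly.

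**Figure D2:**
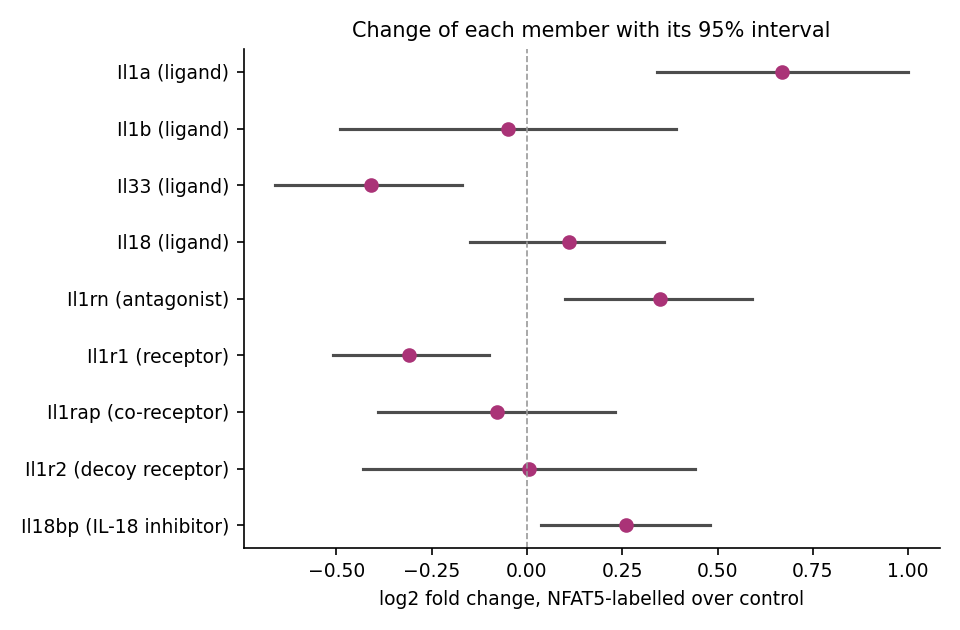
Log2 fold change of each member (points) with its 95% interval from limma (lines), NFAT5-labelled over control, where the dashed line marks no change. The intervals of Il1a, Il1rn and Il18bp lie above 0 and those of Il33 and Il1r1 below it, although 0 of the 9 passed the adjusted threshold.

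Several genes of the family are neighbours. Il1r2, Il1r1 and Il1rl2 follow each other on the chromosome, per RefSeq, and their log2 fold changes were 0.0052, -0.31 and 0.21. Il1rl2, the receptor of interleukin-36, was 5.98 ± 0.099 in the control arrays and 6.19 ± 0.057 in the NFAT5-labelled arrays (SD, n = 4), groups that did not overlap (adjusted p = 0.286 in limma). Of the 11 other ligand and receptor genes of the family 0 were called by limma, against 0.777% of all genes. An unadjusted p under 0.05 was found for 2, against 12.5% of all genes. Their median log2 fold change was -0.031, and 10 of the 11 lay below the median gene in the control arrays, including the interleukin-36 ligand genes, so Il1rl2 alone was above it. The ends of this list were Il1rl2 and Il18rap (0.13), a subunit of the interleukin-18 receptor, and, lower, Il1rapl1 (-0.42) and the interleukin-36 antagonist gene Il1f5 (-0.085). Il1rapl1 was dim (2.43 in the control arrays), and Il1f5 turned sign without single arrays (-0.26 to 0.069).

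In the machinery that cuts and releases the ligands, 0 of 15 genes were called, against 0.777% of all genes. Of the 15, 2 had an unadjusted p under 0.05, against 12.5% of all genes. The median log2 fold change was 0.14, with 12 of the 15 above 0, beside 0.0042 for all genes. Gsdmd, the pore protein through which interleukin-1 leaves the cell, was 6.56 ± 0.047 in the control arrays and 6.82 ± 0.12 in the NFAT5-labelled arrays (SD, n = 4; log2 fold change 0.26 ± 0.081; adjusted p = 0.218 in limma). The other ends were the inflammasome sensor gene Nlrc4 (0.33), which was dim, the channel gene Panx1 (-0.084) and the pyrin gene Mefv (-0.072). Casp8, named after its values were seen, was at 0.25 ± 0.070 and was the only gene of the list called among genes above the median of expression and in the trended fit. Casp1, which cuts interleukin-1 beta and interleukin-18 and was also named after its values were seen, was at 0.023 (6.75 ± 0.19 in the control arrays and 6.77 ± 0.12 in the NFAT5-labelled arrays; SD, n = 4).

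Of 24 measured genes of receptor signalling 0 were called, against 0.777% of all genes, and 3 had an unadjusted p under 0.05, against 12.5%. Their median log2 fold change was -0.036. Irak3, the kinase-inactive family member that restrains signalling from the receptor, had groups that were narrow and did not overlap. Its control values were 8.93, 8.95, 8.91 and 8.92 and its NFAT5-labelled values 8.65, 8.65, 8.60 and 8.67. The gap between the groups was several times the spread within either, a log2 fold change of -0.29 ± 0.065 (adjusted p = 0.0971 in limma; 0.0171 among genes above the median and 0.00101 in the trended fit). Nfkbia, the inhibitor that NF-kB itself induces, was at 0.25 ± 0.077, Mapk9, encoding the kinase JNK2, at 0.24 ± 0.076, and the ubiquitin-conjugating enzyme gene Ube2n at -0.26 ± 0.18. Nfkbia was called in the trended fit (adjusted p = 0.0202 in limma). The adaptor gene Myd88 was at -0.048 and Traf6, which links the IRAK kinases to NF-kB, at 0.085, neither past the threshold and both named after their values were seen.

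Genes known to answer interleukin-1 in mesenchymal cells held the called changes. Of 26 measured genes 3 rose, against 0.364% of all genes, and 0 fell, against 0.413%. The median log2 fold change was 0.063, and 23 did not pass. An unadjusted p under 0.05 was found for 11, against 12.5% of all genes. Groups did not overlap for 8 higher and 2 lower genes, against 4.22% and 4.56% of all genes. The lower genes were Csf2, which was dim, and Saa3, at -0.087 ± 0.067. Saa3 was among the brightest of the list (13.19 in the control arrays, SD 0.0), and whether it could read higher was not tested. The list was assembled with earlier results of these samples known and is not independent evidence of its direction. Nos2, the inducible nitric oxide synthase, rose by 1.09 ± 0.092 (adjusted p = 0.00117 in limma). Ptgs2, the inducible cyclooxygenase, measured 9.44, 9.46, 9.39 and 9.47 in the control arrays and 10.08, 10.05, 10.24 and 10.13 in the NFAT5-labelled arrays and rose by 0.69 ± 0.073 (adjusted p = 0.00537). Its groups were far apart relative to their spread. The call was lost without control replicate 3 and NFAT5 replicate 4 together (log2 fold change 0.67, adjusted p = 0.0658 in limma). The chemokine gene Ccl7 rose by 0.51 ± 0.079 (adjusted p = 0.0255). With single arrays left out its adjusted p in limma was 0.0303 to 0.0952, and it stayed under the threshold only without control replicate 3. Without control replicate 3 and NFAT5 replicate 4 together it was 0.0820. Both Nos2 and Ptgs2 were called in all 8 such fits.

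The other 23 genes of this list did not pass the test. Il6, the cytokine most used as a readout of interleukin-1, was at 0.34 ± 0.094 (adjusted p = 0.169 in limma). Ccl2 was at 0.38 ± 0.089 (adjusted p = 0.105) and Tnfaip3 at 0.31 ± 0.081 (adjusted p = 0.147), all 3 named after their values were seen. In the trended fit 7 of the 26 genes were called, against 3.16% of all genes in that fit, adding Il6, Ccl2, Tnfaip3 and Cxcl2. Ccl2 and Tnfaip3 were also called among genes above the median of expression, where 4.02% of genes were called. Cxcl2 was at 0.86 but dim (2.58 in the control arrays), and the lower ends were Csf2 (-0.38), also dim, and the chemokine gene Ccl20 (-0.37). The adhesion molecule genes Icam1 (-0.00076 ± 0.068) and Vcam1 (0.054 ± 0.069) and the metalloproteinase gene Mmp3 (-0.036 ± 0.070), also chosen after their values were seen, were not called.

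**Figure D3:**
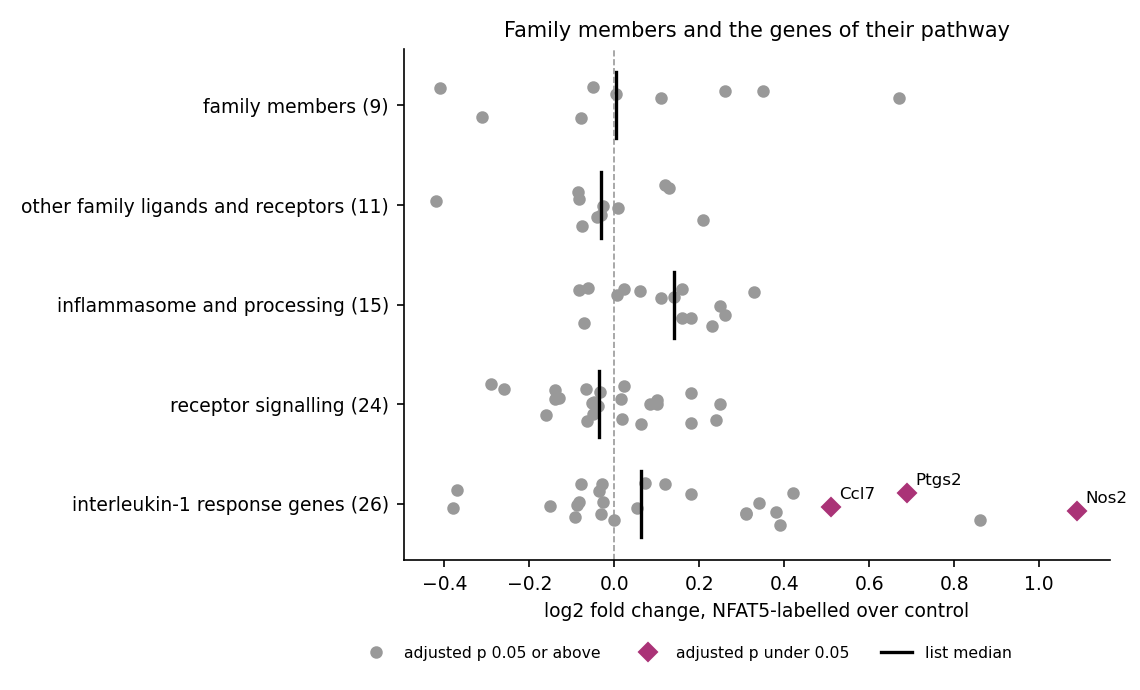
Log2 fold change (horizontal axis) of each measured gene of the family and of 4 lists of its pathway, with the number of genes in parentheses. Points are genes, diamonds are genes called at an adjusted p under 0.05 in limma, vertical bars are list medians and the dashed line marks no change; Nos2, Ptgs2 and Ccl7 are the called genes.

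Markers of other cell types moved in the same comparison. Of 12 measured macrophage markers 12 had log2 fold changes above 0 and 3 rose, against 0.364% of all genes. These were Adgre1 (0.68 ± 0.083), Laptm5 (0.53 ± 0.086) and Cd68 (0.52 ± 0.088). An unadjusted p under 0.05 was found for 7 of the 12, against 12.5% of all genes. Groups did not overlap for 6, all higher, against 4.22%. The summed linear level of the 12 markers, expressed as log2, ranged from 10.16 to 10.32 in the control arrays and from 10.60 to 10.80 in the NFAT5-labelled arrays. None was listed at 0, and Ptprc (3.34) and Cd163 (2.90) lay below the median gene. The Cd68 call was lost without any single array (adjusted p in limma 0.0595 to 0.113), that of Laptm5 without any but control replicate 4 (up to 0.0916), and that of Adgre1 was kept in all 8 of these fits. Without both arrays at the positive end of the second component none of the 3 was called (adjusted p in limma 0.0774 for Adgre1, 0.143 for Laptm5 and 0.135 for Cd68). Macrophages also express genes of this family. Among them are Il1a (log2 fold change 0.67), Il1rn (0.35), Il1b (-0.049) and Il18 (0.11). Whether macrophages were present in these cultures was not tested, nor was any part of theirs in the values of the family. In bulk RNA, marker transcripts from other cells and from the smooth muscle cells themselves cannot be told apart. The same holds for a changed number of cells of a type and a changed amount of RNA per cell.

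All 7 measured fibroblast markers were below 0, with a summed level of 12.41 to 12.53 in the control arrays and 12.33 to 12.43 in the NFAT5-labelled arrays. Most of this sum came from Dcn, the brightest of the 7 (12.20 in the control arrays, log2 fold change -0.069 ± 0.068). Of the 7, 1 was called lower, against 0.413% of all genes, and 4 had an unadjusted p under 0.05, against 12.5%. Groups did not overlap for 4, all lower, against 4.56%. Ly6c1 fell by 1.24 ± 0.23 (adjusted p = 0.0468 in limma), a call kept only without NFAT5 replicate 1 among fits that leave out an array (up to 0.145) and lost without both arrays at the positive end of the second component (0.187). Fibroblasts also express genes of this family, and neither their presence nor their part in the values of the family was tested. Of the smooth muscle markers 0 of 8 were called by limma, against 0.777% of all genes, and 2 had an unadjusted p under 0.05, against 12.5%. Their median log2 fold change was 0.0058, with 4 above 0 and 4 below. Their summed level was 12.25 to 12.28 in the control arrays and 11.96 to 12.10 in the NFAT5-labelled arrays. That sum is made up mostly of Acta2, the brightest of them (12.04 in the control arrays). Acta2, the smooth muscle actin, was at -0.30 ± 0.071 with groups that did not overlap (adjusted p = 0.113 in limma, 0.0258 among genes above the median and 7.95e-05 in the trended fit). The part of smooth muscle markers in the values of the family was not tested. Cnn1 was at 0.33, Lmod1 at 0.17 and Myocd at -0.026. Of 6 neutrophil, 6 mast cell, 5 lymphocyte, 6 endothelial and 6 epithelial or mesothelial markers 0 were called by limma, against 0.777% of all genes. In that order 1, 1, 0, 1 and 0 had an unadjusted p under 0.05, against 12.5% of all genes. Like the fibroblast markers, all 6 epithelial or mesothelial markers were below 0 (median log2 fold change -0.11). Most of the neutrophil, mast cell and lymphocyte markers (5, 5 and 5) lay below the median gene.

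The genes whose values ran most like Il1a and Il33 were found by the root-mean-square distance over the 8 arrays, after subtraction of each gene's control mean. Nearest to Il1a were Star, the carrier of cholesterol into mitochondria (distance 0.12 log2 units; log2 fold change 0.66 ± 0.10; adjusted p = 0.0243 in limma), Cntfr, the ciliary neurotrophic factor receptor (0.13; 0.78 ± 0.096; adjusted p = 0.00884), and Pla2g7, the lipoprotein-associated phospholipase A2 (0.13; 0.70 ± 0.15; adjusted p = 0.0880). All 3 shared with Il1a the smallest difference on NFAT5 replicate 1, at 0.48, 0.56 and 0.33 against 0.29 for Il1a. Over all genes too, NFAT5 replicate 1 lay nearest the control arrays on the first principal component. It was at 7.49 there, the other NFAT5-labelled arrays at 12.9 to 19.9 and the control arrays at -17.1 to -6.8. Nearest to Il33 were the non-coding RNA gene Snhg7 (distance 0.066; log2 fold change -0.37), the peptide hormone gene Apln (0.070; -0.39) and Brat1 (0.076; -0.34), none of them called. These 3 and Il33 were closest to the control mean on NFAT5 replicate 3, at -0.10, -0.20, -0.16 and -0.16. For both sets the choice by distance over these same arrays favours such shared positions, which are not a separate result.

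**Figure D4:**
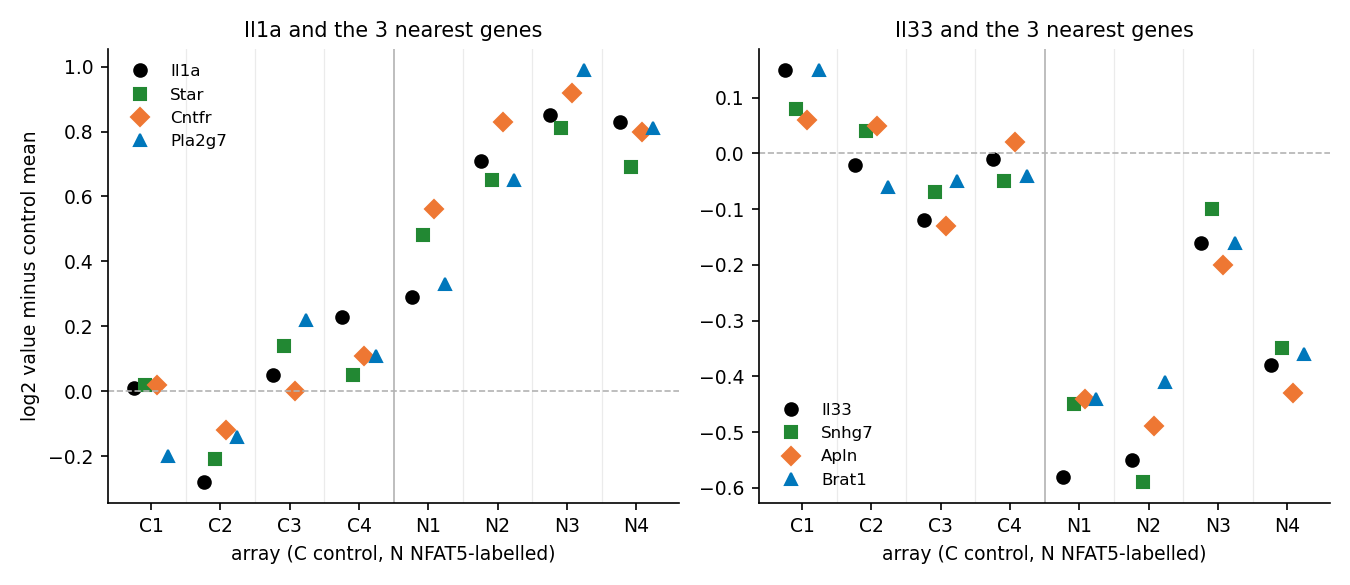
Log2 value minus the control mean (vertical axis) on each control (C1 to C4) and NFAT5-labelled (N1 to N4) array for Il1a and its 3 nearest genes (left) and for Il33 and its 3 nearest genes (right). The Il1a set lies above 0 on all 4 NFAT5-labelled arrays and is lowest on N1, and the Il33 set lies below 0 on all 4 and is nearest to 0 on N3. Both sets were chosen by likeness over these same arrays.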

How the data were processed

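The deposited table gave 1 value per probe set and array on the log2 scale. The authors made these deposited log2 values with RMA, named without a version in the submitters' processing notes; their genome build and annotation release were not given there. RMA corrects background, quantile normalises arrays and summarises probes, so a shift of all genes cannot be seen, and differences of dim genes are compressed. Of 25428 probe sets, 24705 had 1 symbol in the supplied platform annotation, 0 had several and 723 were not listed and stay unnamed. The brightest probe set per symbol was kept (24704 genes) and no filter on dim genes was applied. Interleukin-36 genes were matched through RefSeq synonyms. Arrays correlated at 0.989 to 0.993, and their number limits the precision (median standard error 0.112).

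Groups were taken from titles and compared with limma 3.58.1 in R 4.3.3 (lmFit, eBayes, two-sided, no covariates). Single values were also tested by exact permutation. The code was tested on simulated data, and plots were made in Python 3.11.15 (matplotlib 3.10.9). Members and lists were chosen with earlier results of these data known. Named are Nfat5, all measured members, called genes and the ends of each pathway list and of the smooth muscle markers, and the 3 genes nearest to the extreme members; the rule also covered the ends of the other marker lists, which were left as counts after values were seen. Other genes named, such as markers that check the tissue, were chosen after their values were seen. Alternatives were a replicate block, median centring, renewed quantile normalisation, filters on dim genes, limma's trend and robust options (the trended fit), weights per array, every probe set, and arrays left out. Same-numbered arrays of the groups did not deviate together (correlations of -0.079 to 0.055).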

Additional observations from a re-analysis of the deposited data

Results flagged for a closer look

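In 4 of 72 groups of arrays examined (36 named genes in both groups) 1 array lay far from the other 3, with a gap to the nearest that took most of the range of the group (Dixon's criterion); chance marks about 1 in 20. Il1b in the control arrays was 3.97 on replicate 4 and 3.38 to 3.42 on the others. Il18rap in the control arrays was 2.82 on replicate 1 and 2.52 to 2.57 on the others. In the NFAT5-labelled arrays, Mefv was 2.35 on replicate 4 and 2.20 to 2.23 on the others, and Csf2 was 1.72 on replicate 4 and 2.22 to 2.25 on the others. All 4 genes were below the median gene.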

How the results depend on the processing

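Of the 9 members, 1 (Il1a) was called among genes above the median of expression, where 6 members remained to be tested. In the trended fit 4 were called, and 0 to 1 with single arrays left out. Median centring, renewed quantile normalisation, array weights and the lower quartile filter gave 0. So did every probe set by itself, the replicate block and leaving out both arrays at the positive end of the second component. The count over all genes, 192, was 497 above the median, 781 in the trended fit and 14 with the replicate block. It was 30 without both of those arrays and 56 to 88 with single arrays left out, fits that hold fewer arrays. Above the median, 1 gene was called in the processing list, 1 in the signalling list and 5 in the response list; with the trend these counts were 1, 2 and 7. In the response list 1 gene (Nos2) was called with the replicate block and 1 without both arrays at the positive end of the second component. With the replicate block the adjusted p in limma was 0.0851 for Ptgs2, 0.121 for Ccl7, 0.0782 for Adgre1, 0.138 for Laptm5, 0.111 for Cd68 and 0.157 for Ly6c1, none of them called there. The labels do not say whether the replicate numbers pair the arrays, and not every array correlated best with its own number. Signs turned for Il1b without both arrays at the positive end of the second component (0.043) and over single arrays left out (-0.19 to 0.093). Those of Il1r2 turned with array weights (-0.0097), without both arrays (-0.12) and over single arrays (-0.14 to 0.15). Il1f5 turned without both arrays (0.11) and over single arrays (-0.26 to 0.069). Over single arrays Il1rap (-0.19 to 0.023) and Myocd (-0.076 to 0.055) also turned. Il1a, Il33, Il1rn, Il1r1 and Il18bp kept their sign under every alternative run. The cause of these shifts was not tested. Il18, Il1b and Il1r2 lay below the median gene, where signal over background limits what can be seen.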
